A study of Mus musculus with 6 samples.

Results

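The mesenchymal cells described here were 959 cells of the E15.5 mouse lung library, out of 12789 cell barcodes in that library and 63659 in all 6 libraries of the series. They were chosen on measured values. A cell had at least 700 genes, 0.5% to 10% mitochondrial transcripts, at least 5 molecules of the collagen genes Col1a1, Col1a2 and Col3a1 together, at most 1 molecule of the endothelial genes Pecam1 and Cdh5 together, none of the epithelial gene Epcam or the leukocyte gene Ptprc, and not 5 or more molecules of both Acta2 and Tagln, the smooth muscle pair. The cell filters left 11649 cells, of which the mesenchymal cells made up 8.23% (exact Clopper-Pearson 95% interval 7.74% to 8.75%). In the same library, 8783 cells were endothelial by their own gate (75.4%), with at least 3 molecules of Pecam1 and Cdh5 and fewer than 5 of the collagens, and 1137 passed all mesenchymal limits but carried 5 or more molecules of both Acta2 and Tagln (9.76%), the smooth muscle gate.

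All 4 sorted libraries, taken at embryonic days E13.5, E15.5 and E18.5 and on day 8 after birth (P8), came from Cxcl12DsRed/+ mice, in which a red fluorescent reporter replaces 1 copy of Cxcl12, so every cell compared here had 1 intact copy of the gene. The other 2 libraries, of whole lungs at E18.5, were not used here. Lungs of 2 to 4 animals were mixed into 1 library at each age, with no strain beyond the allele named. The suspension was depleted of CD45+ and EpCAM+ cells, and reporter-positive cells were taken with or without the endothelial protein CD31, although the series text names the CD31+ gate alone. With 1 library at each age there was no replicate, no test between ages was possible, and the intervals printed cover counting error only. Intervals of CPM take each UMI as independent and leave out the spread between cells. They are therefore too narrow where few cells hold most of the UMIs.

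Lung mesenchyme supplies the fibroblasts, smooth muscle and pericytes of the organ and signals to the epithelium and vessels that branch through it. Its identity is tied to a set of transcription factors that includes Foxf1, Tcf21 and the T-box genes Tbx2, Tbx3, Tbx4 and Tbx5. CXCL12 is a secreted chemokine that acts through the receptor CXCR4, and it is bound and cleared by the scavenger receptor ACKR3.

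The reporter was placed in Cxcl12, the gene on which the cells were sorted, so the sequence just before its start is shown. A reporter in the locus can also read more distant elements, and these data do not tie the sort to the bases shown. Cxcl12 lies on the plus strand of chromosome 6, from 117168535 to 117181367 in GRCm38. The 250 bases before its start, chr6:117168285-117168534 on the plus strand of GRCm38.p6 as given by RefSeq, run from 5′ to 3′ with capitals marking the GC box GGGCGG on either strand.
Cxcl12 upstream region: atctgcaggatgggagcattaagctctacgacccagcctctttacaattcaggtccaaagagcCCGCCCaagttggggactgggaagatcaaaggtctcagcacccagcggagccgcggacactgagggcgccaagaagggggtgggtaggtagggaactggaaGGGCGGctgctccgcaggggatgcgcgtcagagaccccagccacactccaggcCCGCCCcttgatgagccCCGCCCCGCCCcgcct
The region was 64.4% G or C, against a median of 52.4% over all promoters, and held 5 GC boxes, of which the last pair overlap. Of 32851 promoters in the same table, 32.7% held at least 1 GC box. Neither strand held the TATA box TATAAA, found in 12.4% of promoters, the CCAAT box, its name being its letters, found in 33.8%, or the hypoxia element core ACGTG, found in 16.6%.

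The gate separated cells cleanly on collagen and less so on its other limits. Only 3 members had exactly 5 collagen molecules, and only 1 cell had 4 and 5 cells had 3 while passing every other limit. Of the members, 841 had no molecule of Pecam1 or Cdh5 and 118 had 1, and a further 17 cells just outside had 2. At the smooth muscle limit, 52 members carried at least 4 molecules of both Acta2 and Tagln, and 41 cells just outside had exactly 5 of at least 1 of them. Cxcl12 stood at 145 counts per 1000000 UMIs (CPM) in these 52 members and at 147 CPM in the 41 cells just outside. At the endothelial limit, it stood at 241 CPM (exact Poisson 95% interval 211 to 273) in the 118 members with 1 molecule of Pecam1 or Cdh5, at 186 (175 to 197) in the 841 with none, and at 34.3 (11.1 to 80.05) in the 17 cells just outside, from 5 UMIs.

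The members had a median of 7327 molecules (UMIs, unique molecular identifiers) and 2518 genes per cell, and a median mitochondrial share of 4.44%. The endothelial cells of the library had a median of 8474 UMIs and the E13.5 cells of the same gate 6871. Between 34 and 54 barcodes were shared with each of the other libraries, and 2 to 5 members among them. A doublet caller marked 2 of the 959 members, against 237 of the 492 cells that carried both 5 or more collagen UMIs and over 1 of Pecam1 and Cdh5.

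The label was checked against lists of known markers, as summed CPM over each list. Genes of the gate are left out of the counts and sums, since the gate fixed them. The mesenchymal list had 4 of 5 markers at 10 CPM or more and summed to 272 CPM, the missing one being Tbx4 at 7.21 CPM. That sum was below those of the same gate at E13.5 (365 CPM) and E18.5 (1165 CPM). Markers of several other classes were low. No marker of the epithelial, immune, erythroid or neural crest lists reached 10 CPM, with sums of 10.3, 7.34, 11.8 and 7.62 CPM, and Nkx2-1, the lung epithelial factor, and Sox10, the neural crest factor, were at 0. The endothelial list summed to 248 CPM against 4395 in endothelial cells, and 161 CPM of it came from Ramp2. The cardiomyocyte list summed to 213 CPM with 2 of 8 markers at 10 CPM or more, Tnnt2 and Actc1. That list summed to 12.7 CPM at E13.5 and 5.10 at E18.5, but to 562 in the smooth muscle gate of the same E15.5 library. The chondrocyte and mesothelial lists summed to 112 and 96.1 CPM.
The adventitial fibroblast list, of genes such as Dcn, Lum and Ogn, had the highest sum among the mesenchymal subtypes at 5877 CPM, with 9 of 10 markers at 10 CPM or more, against 1281 CPM at E13.5, 7189 at E18.5 and 1249.7 in the smooth muscle gate. Dcn alone gave 3148 CPM. Sums over different genes follow the abundance of the genes chosen, and this list also had the highest subtype sum at E13.5 and in the smooth muscle gate. The alveolar fibroblast list summed to 230.1 CPM, below the 312 of E13.5 and the 2135 of E18.5, and to 94.8 in endothelial cells. The myofibroblast list summed to 531 CPM, against 526 in the smooth muscle gate, and the pericyte list to 344, against 740 in that gate. The smooth muscle list without Acta2 and Tagln summed to 95.3 CPM, against 857 in the smooth muscle gate.

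Cxcl12 was present in the mesenchymal cells at a level well under that of the endothelial cells of the same library. It stood at 193 CPM in the members (exact Poisson 95% interval 183 to 203), 194 in the smooth muscle gate and 748 in endothelial cells (742 to 754). The log2 ratio of the member to the endothelial level was -1.95, adding 0.5 CPM to each. The intervals of the members and of the smooth muscle gate overlapped, so no difference between them was detectable at this depth.
In epithelial barcodes, 24 cells with 3 or more Epcam UMIs that should lack the gene, Cxcl12 stood at 8.15 CPM, from 4 UMIs. Free endothelial RNA was followed through Cldn5, a tight-junction gene of endothelial cells. At the endothelial ratio of Cxcl12 to Cldn5, the 13.1 CPM of Cldn5 in the members would carry 9.66 CPM of Cxcl12, and the observed ratio was 14.8 in the members against 0.740 in endothelial cells.

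With every cell thinned to 2000 UMIs, which left out 16 shallower members, 16.6% of the members held a Cxcl12 UMI (14.3% to 19.2%), and 28.99% did before thinning. The share was 18.4% in the smooth muscle gate, 48.1% in endothelial cells and 2.39% in the epithelial barcodes, whose median depth was 19078 UMIs. Most reporter-sorted mesenchymal cells thus held no Cxcl12 UMI, which at this depth does not show that they made none.

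**Figure D1:**
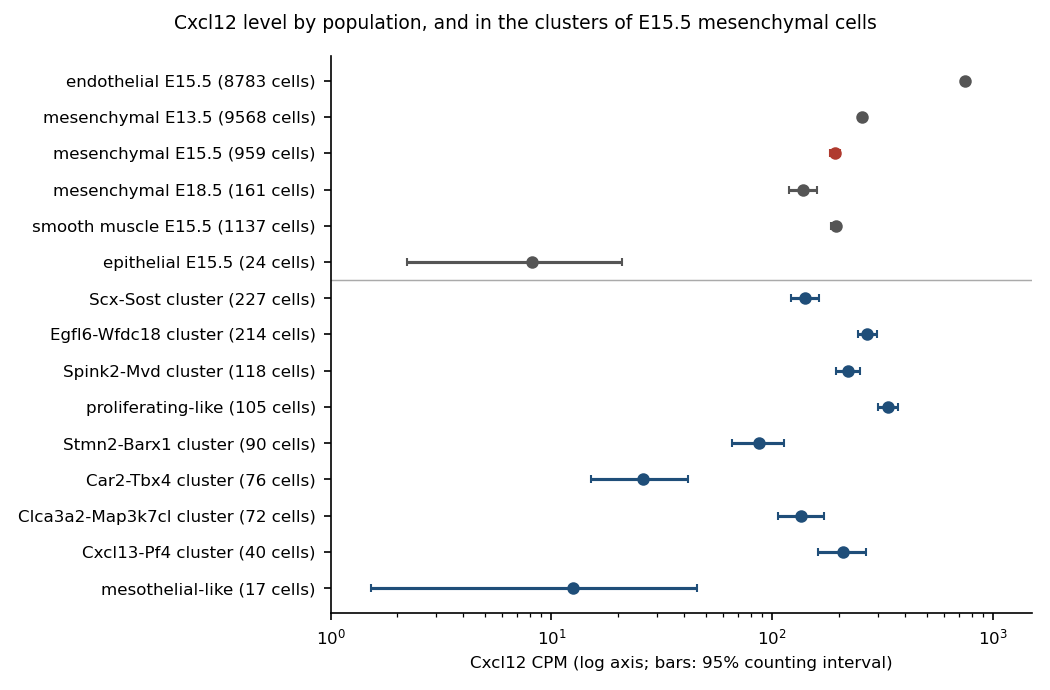
Cxcl12 level in CPM (log axis, points with exact Poisson 95% intervals) in the populations of the sorted libraries and in the 9 clusters of E15.5 mesenchymal cells. The members sit at 193, under the endothelial cells at 748, and their clusters span 12.6 to 334.

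Cxcl12 UMIs were concentrated in few of the mesenchymal cells. The 48 members with 10 or more Cxcl12 UMIs, 5.01% of all, held 52.3% of the 1420 Cxcl12 UMIs, and the highest cell had 42. At E13.5, 1.98% of the cells in the same gate had 10 or more and held 12.5%, with a maximum of 22. The smooth muscle gate resembled the E15.5 members, with 6.16% of cells holding 50.6%, whereas in endothelial cells 30.7% of cells held 83.0%.
Ranked by their Cxcl12 UMIs, the top 10% of members held 76.9% of the UMIs, against 41.3% for the top 10% of endothelial cells. Of the 48 members, 15 were in the proliferating-like cluster, 13 in the Egfl6-Wfdc18 cluster and 11 in the Spink2-Mvd cluster described later, and none in the Car2-Tbx4 cluster. These clusters made up 10.9%, 22.3%, 12.3% and 7.92% of all members, in the same order. The cut at 10 UMIs was not matched for depth. The proliferating-like and Spink2-Mvd clusters had medians of 9954 and 9156.5 UMIs, against 7327 over all members.

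**Figure D2:**
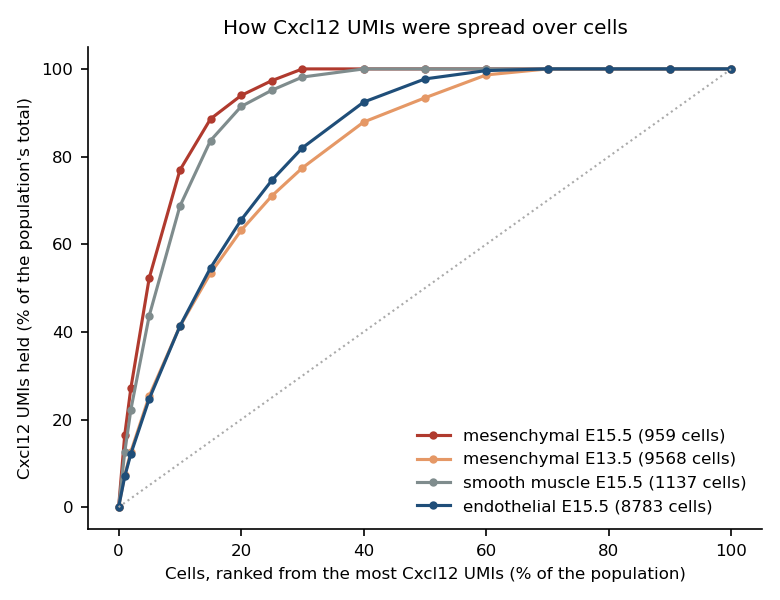
Share of a population's Cxcl12 UMIs (vertical axis, %) held by its cells ranked from the most Cxcl12 UMIs (horizontal axis, % of cells), for 4 populations, with the diagonal as equal sharing. The curve of the E15.5 mesenchymal cells climbs fastest, reaching 76.9% at 10% of cells, and the endothelial curve reaches 41.3% there.

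Over 6 endothelial genes other than Pecam1 and Cdh5, the summed level was 263 CPM (221 to 310.2) in the 48 members with 10 or more Cxcl12 UMIs, 256 CPM (234 to 280.0) in the 230 with 1 to 9 and 243 CPM (229 to 257) in the 681 with none, and these intervals overlap. Endothelial cells stood at 4395 CPM. Cldn5 was at 15.02, 15.3 and 11.97 CPM in the same order. A single Pecam1 or Cdh5 UMI, the most the gate allowed, was found in 18.8% of the 48 (8.95% to 32.6%) and in 11.5% of the 681 with none (9.16% to 14.1%), which overlap.
Depth moved with the grouping, since the median cell had 10723, 7681 and 7045 UMIs in the same order, and its part in the grouping was not tested. Acta2 stood at 156, 387 and 454 CPM and the proliferation marker Mki67 at 190, 71.3 and 87.1 CPM. An attempt to list the genes that accompany Cxcl12 gave no stable names. After thinning to 2000 UMIs, 80 members had 2 or more Cxcl12 UMIs in 1 draw and 78 in a second draw, and only 1 of the 10 genes with the highest ratio and 1 of the 10 with the lowest were shared between draws, each from 8 to 13 UMIs.

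Of the receptors, Ackr3 was expressed by the mesenchymal cells and Cxcr4 was nearly absent. Ackr3 stood at 68.8 CPM in the members (62.9 to 75.1), above the 30.3 CPM of the smooth muscle gate, the 27.4 of endothelial cells and the 28.6 of the E13.5 gate. Cxcr4 stood at 2.45 CPM, against 33.1 in endothelial cells. Dpp4, a peptidase that cleaves CXCL12, stood at 4.22 CPM.
Ackr3 and Cxcl12 ordered the clusters described later differently, as levels with no test. Ackr3 was at 136 CPM in the Stmn2-Barx1 cluster and 135 in the Scx-Sost cluster, where Cxcl12 was at 86.8 and 141, and at 31.2 in the Egfl6-Wfdc18 cluster, where Cxcl12 was at 269. The proliferating-like cluster, highest in Cxcl12 at 334 CPM, had Ackr3 at 72.7. In the Car2-Tbx4 cluster both were low, Ackr3 at 3.06 CPM from 2 UMIs and Cxcl12 at 25.97 from 17.

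Apart from genes of the gate, the most abundant transcripts of the members mixed genes that most cells express with genes of growth and matrix. The 15 highest, leaving out mitochondrial genes and genes with an Rpl or Rps symbol, were led by the nuclear RNA Malat1 at 22122 CPM, followed by Eef1a1, Tmsb4x and Tpt1. Dlk1, an imprinted Notch-family ligand of immature mesenchyme, stood at 4286 CPM, against 326 in the smooth muscle gate and 5.89 in endothelial cells. The matrix protein gene Sparc was at 4276 CPM, but was also high in endothelial cells at 2082.
Cdkn1c, an imprinted cell cycle inhibitor, was at 3306 CPM against 787 in the smooth muscle gate. The growth factor Ptn was at 3298 CPM against 14.7 in endothelial cells. The small proteoglycan Dcn was at 3148 CPM against 3.22. The others were Gnas, Ppia, Actb, Fau, Ptma and Lgals1, each between 3128 and 3283 CPM. Since 3′ tags count 1 UMI per molecule, these levels are not per length. Eef1a1, Tpt1, Sparc, Ppia, Actb, Fau and Ptma share a stretch near their 3′ end with another gene, so their counts are uncertain.

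Set against endothelial cells, the largest log2 ratios of the members outside the gate were those of the matrix gene Dcn (9.72), Dlk1 (9.39), the chemokine Cxcl13 (8.90), the proteoglycan Ogn (8.85) and the retinoic acid binding protein Crabp1 (8.85). The most negative were those of Clec1a (-6.44), Cyyr1 (-6.26), Cldn5 (-6.22), the arterial gap junction gene Gja4 (-6.15) and the pericyte-recruiting growth factor Pdgfb (-6.08). The cells were parted by gates on collagen and endothelial genes, so these ratios describe the gates' cells and were not tested.
Against the smooth muscle gate, parted by Acta2 and Tagln, the members were higher in the transcription factor Ebf2 (94.2 against 4.92 CPM), the Wnt modulator Dkk2 (204 against 11.8), Dlk1, Itih5 and Scara5. They were lower in the contractile genes Myh11 (1.77 against 141 CPM) and Actg2 (10.9 against 289), and in Wisp2, Ptprz1 and Plb1. The elastic fibre gene Eln was also lower, at 1555 against 8277 CPM.

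To describe subtypes, the 959 members were clustered with the genes of the pathway and matrix lists left out, which gave 9 clusters of 17 to 227 cells. Since the clusters were cut from these cells' own values, differences between them are descriptions and were not tested. A cluster received a name only where the same marker list led it at 3 resolutions, the mean log2 ratio of that list to the other members was at least 0.5, and no other list had more markers among its 10 leading genes. The 3 conditions were met by a proliferating-like cluster of 105 cells and a mesothelial-like cluster of 17 cells, and the other 7 are called by their leading genes. The adventitial fibroblast list led 3 of these 7 at all 3 resolutions, the Egfl6-Wfdc18, Spink2-Mvd and Stmn2-Barx1 clusters, but with mean log2 ratios of 0.42, 0.27 and 0.44. Resolution 0.2 gave 5 clusters and joined these 3 with the Clca3a2-Map3k7cl and Cxcl13-Pf4 clusters. The lead there was thus 1 shared value. Overlap with the nearest cluster under 7 other settings was taken as the cells in both over the cells in either. The lowest overlap was 92.7% for the Car2-Tbx4 cluster, 88.9% for the mesothelial-like, 80.3% for the proliferating-like and 67.0% for the Scx-Sost cluster. The other 5 fell to between 7.48% and 40% under at least 1 setting, so they were not kept apart under every setting. Merging of whole clusters lowers this overlap as well as loss of cells does.

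**Figure D3:**
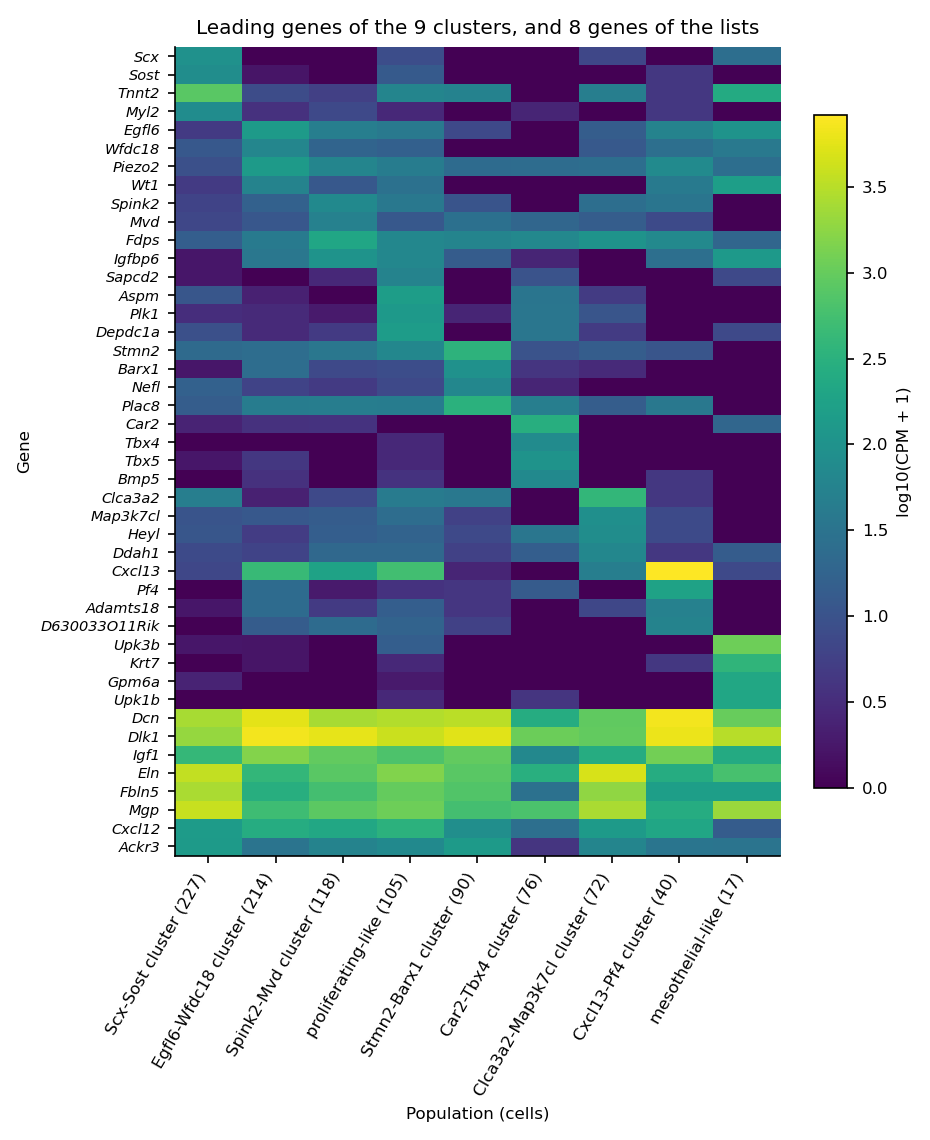
Levels, as log10 of CPM plus 1 (colour), of the 4 leading genes of each of the 9 clusters and of 8 list genes (rows) in each cluster (columns, cell number in brackets). Dcn and Dlk1 are high in most clusters and lowest in the Car2-Tbx4 cluster for Dcn at 263 CPM, while Eln and Fbln5 are highest in the Scx-Sost and Clca3a2-Map3k7cl clusters.

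The Scx-Sost cluster was the largest, with 227 cells (23.7% of the members) and the lowest median depth at 5879 UMIs. Its leading genes were the tendon transcription factor Scx at 94.1 CPM against 2.50 in the other members, the Wnt inhibitor Sost (82.4 against 2.50), the thin filament gene Tnnt2 (829 against 29.7), Myl2 and Ramp1. Tnnt2 and Myl2 are heart muscle genes, and Actc1, a cardiac actin (67.7 against 2.34), and the heart transcription factor Tbx20 (88.3 against 5.01) were also among the 10 leading genes. The cardiomyocyte list summed to 951 CPM, of which Tnnt2 was 829, with 4 of 8 markers at 10 CPM or more, while its members Nppa and Myh6 were at 2.94 and 1.47 CPM. The chondrocyte list summed to 368 CPM with 6 of 7 at 10 or more. The smooth muscle list without Acta2 and Tagln summed to 336 CPM with 5 of 6 at 10 or more, the highest among the clusters. In the smooth muscle gate of the library, that list summed to 857 CPM and the cardiomyocyte list to 562. The cardiomyocyte list led at resolutions 0.2 and 0.8 and the chondrocyte list at 1.2, so the cluster was not named.
The elastic fibre gene Eln stood at 3632 CPM, below the 4760.2 of the Clca3a2-Map3k7cl cluster, its partner Fbln5 at 2650.5 and the calcification inhibitor Mgp at 3916, and the 3 were at 393, 290.3 and 508 CPM in the Egfl6-Wfdc18 cluster. The Wnt modulators Sfrp2 and Dkk3 stood at 3727 and 321 CPM. Acta2 was at 1314 CPM, the highest of the 9 clusters, with Tagln at 354, and Sox9 at 77.96. Cxcl12 stood at 141 CPM (122 to 163).

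The Egfl6-Wfdc18 cluster held 214 cells (22.3%) and was led by Egfl6 at 135 CPM against 24.2, Wfdc18, the stretch-gated channel gene Piezo2 (135 against 33.2), Wt1 and Itih5. Fibroblast matrix and growth genes stood high in it, with Dcn at 5677 CPM, Dlk1 at 7019 and Igf1, a growth factor, at 1575. Cxcl12 was at 269 CPM (244 to 297). The Cxcl13-Pf4 cluster of 40 cells resembled it in Dcn (7092 CPM) and Dlk1 (6331), but held Cxcl13, a chemokine of lymphoid stroma, at 8308 CPM against 215 in the other members, and Pf4 at 183 against 6.95. Immune markers summed to 13.1 CPM in that cluster.

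The Spink2-Mvd cluster of 118 cells was led by Spink2 and by 3 genes of the sterol pathway, Mvd (52.7 against 11.8 CPM), Fdps (211 against 48.8) and Msmo1 (154 against 41.7), with the IGF binding protein gene Igfbp6. Fdps has near-identical copies, so its count is uncertain. The retinoic acid binding genes Crabp1 and Crabp2 stood at 940.0 and 199.8 CPM, against 23.5 and 11.8 in the Scx-Sost cluster. Cxcl12 was at 221 CPM (194 to 250.3).

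The proliferating-like cluster of 105 cells was led by the division genes Sapcd2, Aspm, Plk1, Depdc1a and Kif23, with Top2a at 951 CPM against 209.8 over all members. It had the highest Cxcl12 level of the clusters, 334 CPM (301 to 370.2), and the deepest cells, with a median of 9954 UMIs. That interval leaves out the spread between cells, so the rank of the cluster is a description. Outside its division genes it spread across the other clusters' genes, with Dcn at 2934, Dlk1 at 3964 and Eln at 1504 CPM. Thinned to 2000 UMIs, 22.7% of its cells held a Cxcl12 UMI, against 13.1% in the Scx-Sost cluster, 22.9% in the Egfl6-Wfdc18 cluster and 20.6% in the Cxcl13-Pf4 cluster. Such cells had a mean of 2.43 and 2.10 UMIs in the proliferating-like and the Scx-Sost cluster, whose shares without thinning were 33.3% and 22.5%. The 15 proliferating-like cells with 10 or more Cxcl12 UMIs held 77.1% of the Cxcl12 UMIs of that cluster.

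The Stmn2-Barx1 cluster of 90 cells was led by Stmn2 at 339 CPM against 28.1, the homeobox gene Barx1 (94.7 against 8.33), the neurofilament gene Nefl, Plac8 and Fez1. Stmn2 was also high in the endothelial cells of the library at 1069 CPM, while Cldn5 was at 7.89 CPM in the cluster. The growth factor genes Fgf10 and Fgf18 were highest there among the clusters, at 99.4 and 101 CPM. So were Pdgfra at 271, the guidance ligand Sema3c at 177 and Pi16, a marker of adventitial fibroblasts, at 271. The proliferating list was lowest there among the clusters, at 229 CPM with 2 of 8 markers at 10 CPM or more, and Mki67 and Top2a were at 1.58 and 3.16 CPM. Cxcl12 was at 86.8 CPM (65.4 to 113).

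The Clca3a2-Map3k7cl cluster of 72 cells was led by Clca3a2 (389 against 20.6 CPM), which shares sequence with Clca3a1, and by Map3k7cl, the Notch target Heyl (81.4 against 11.8), Ddah1 and Ctsh. The mural cell gene Rgs5 was at 259.6 CPM, Eln at 4760.2 and Tagln at 688, and Acta2 at 515. The pericyte list had 8 of 9 markers at 10 CPM or more in this cluster, with Kcnj8 and Abcc9 at 83.3 and 42.6 CPM and Higd1b at 0. It summed to 645 CPM, the highest among the clusters, against 344 over all members and 740 in the smooth muscle gate. Its mean log2 ratio to the other members was 0.19, and it did not lead at every resolution, so the cluster was not named. Cxcl12 was at 136 CPM.
The mesothelial-like cluster of 17 cells had Upk3b at 1146 CPM, Krt19 at 573 and Wt1 at 157, with the retinoic acid enzyme Aldh1a2 at 264 and the Wnt agonist Rspo1 at 283. Its Cxcl12 level of 12.6 CPM came from 2 UMIs (1.52 to 45.5).

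The Car2-Tbx4 cluster of 76 cells (7.92% of the members, 6.29% to 9.82%) stood apart from the other 883 members. It was led by the carbonic anhydrase gene Car2 at 286 CPM against 1.79, Tbx4 (77.9 against 0.299), Tbx5 (101 against 1.19), the ligand gene Bmp5 (71.8 against 1.19) and 6030408B16Rik. The alveolar fibroblast list led it at all 3 resolutions, at 877 CPM with 8 of 8 markers at 10 CPM or more. In the other members that list stood at 167 CPM with 5 of 8. The cluster was left unnamed because its 10 leading genes held no marker of that list and 1, Tbx4, of the general mesenchymal list. Under the 7 other settings it held 76 to 82 cells.
Further lung mesenchyme factors stood higher there than in the other members. Foxf1 was at 118 against 6.57 CPM, Tcf21 at 232 against 21.05, Tbx2 at 166 against 6.72 and Hoxb5 at 137 against 11.2. Among signalling genes, Wnt2, which specifies lung, was at 189 against 26.4 CPM, Ptch1, the hedgehog receptor and target, at 137 against 25.8, and Angpt1, a ligand of the endothelial receptor Tie2, at 45.8 against 3.88. Division genes were high, with Mki67 at 162 against 83.4 CPM.

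Several matrix and fibroblast genes stood lower in the Car2-Tbx4 cluster, but the fibroblast lists were divided. The adventitial and myofibroblast lists summed to 558 and 257 CPM there, against 6397 and 558 in the other members. The alveolar fibroblast list was higher, at 877 against 167 CPM, as was the mesenchymal list without gate genes, at 474 against 252. Dcn was at 263 against 3429.9 CPM, Ptn at 324 against 3588, Sfrp2 at 76.4 against 1898 and the microfibril gene Mfap5 at 7.64 against 664. The Wnt agonist Rspo3 had no UMI in the cluster, against 103 CPM elsewhere. Other transcription factors of the lung mesenchyme list were lower there, Prrx1 at 19.9 against 295, Osr1 at 12.2 against 197, Twist1 at 6.11 against 104 and Gata6 at 15.3 against 237.
Cxcl12 was at 25.97 CPM in this cluster (15.1 to 41.6), from 17 UMIs with no cell above 2, against 209 CPM in the other members (199 to 221). Thinned to 2000 UMIs, 4.65% of its cells held a Cxcl12 UMI (1.45% to 12.9%). The share was 2.39% in the epithelial barcodes, from 24 cells (0.105% to 21.1%). At the endothelial ratio, the cluster's 27.5 CPM of Cldn5 would carry 20.3 CPM of Cxcl12. Without thinning, the shares were 18.4% in the cluster and 8.33% in the epithelial barcodes, whose median depths were 8050.5 and 19078 UMIs. Per cell, the mean was 0.224 Cxcl12 UMIs in the cluster and 0.167 in the epithelial barcodes. By level, the epithelial barcodes stood at 8.15 CPM from 4 UMIs (2.22 to 20.9). That interval overlaps that of the cluster, but overlap is no test. Whether the cluster differed from background was not tested.

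Tbx4 and Tbx5 were found in few of the members. A UMI of Tbx4 or Tbx5 was found in 55 of the 959 members, of which 48 were in the Car2-Tbx4 cluster. Thinned to 2000 UMIs, the share was 2.52% of the members (1.64% to 3.76%), 13.9% of the E13.5 cells (13.2% to 14.6%) and 22.9% of the 161 E18.5 cells (16.7% to 30.3%). In the E15.5 members outside the cluster it was 0.308% (0.0714% to 1.01%), and in endothelial cells, which should lack both genes, 0.0890%, where the median depth was 8474 UMIs. In the 2 largest clusters, Tbx4 was at 0 UMIs, and Tbx5 was at 0.735 CPM from 1 UMI in the Scx-Sost cluster and at 3.25 from 5 UMIs in the Egfl6-Wfdc18 cluster.
Other factors of the list were more widely found. Tcf21 had a UMI in 148 members, of which 100 were outside the Car2-Tbx4 cluster, and in 6.69% of the members thinned to 2000 UMIs against 16.5% at E13.5. Meis2 and Zeb2 were broadly expressed at 341 and 237 CPM over all members, and Meis2 was highest in the Scx-Sost cluster at 694. Gata6 was at 388 CPM there and Prrx1 at 411 in the Egfl6-Wfdc18 cluster.

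**Figure D4:**
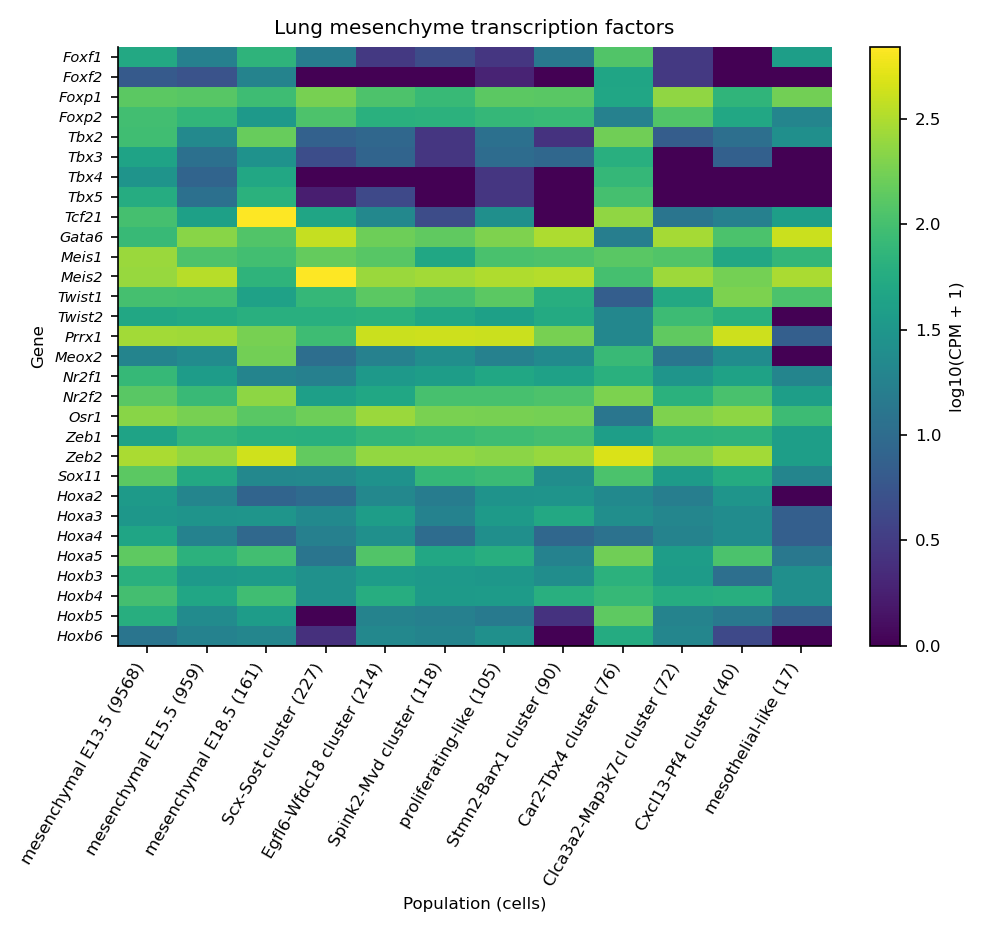
Levels, as log10 of CPM plus 1 (colour), of transcription factors of lung mesenchyme (rows) in the same gate at 3 ages and in the 9 clusters of E15.5 members (columns, cell number in brackets). Foxf1, Foxf2, Tbx2 to Tbx5, Tcf21 and Hoxb5 are highest among the clusters in the Car2-Tbx4 cluster, while Gata6, Prrx1 and Osr1 are low there.

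Cells with a Tbx4 or Tbx5 UMI had less Cxcl12 at every age that could be compared. At E15.5 Cxcl12 stood at 33.6 CPM in the 55 cells with such a UMI (19.2 to 54.6) and 204 in the 904 without (194 to 215). At E13.5 it stood at 153 CPM in 3533 cells with and 330.4 in 6035 without, and at E18.5 at 93.9 CPM in 76 and 166 in 85. Ackr3 followed the same order, at 8.41 against 72.99 CPM at E15.5 and 14.6 against 38.98 at E13.5.
A cell with no UMI of either gene may still express it, so the split is a coarse one, and depth moved with it. Cells with and without such a UMI had medians of 8254 and 7295 UMIs at E15.5, 7865 and 6391 at E13.5 and 6437 and 9069 at E18.5.

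The same gate held 9568 of 12726 cells at E13.5 (75.2%), 161 of 9542 at E18.5 (1.69%) and 29 of 8451 at P8 (0.343%), the last too few for levels. The sort can set these shares, and how far a different choice of mesenchymal cells at each age moves with the differences in levels was not tested. Cxcl12 was at 255 CPM at E13.5 (251 to 259), 193 at E15.5 and 138 at E18.5 (119 to 159), and the log2 ratio of E15.5 to E13.5 was -0.40. It was -0.72 with the mean of per-cell CPM, -0.81 with cells thinned to 2000 UMIs, -2.17 in cells with a Tbx4 or Tbx5 UMI and -0.69 in cells without. The share of thinned cells with a Cxcl12 UMI was 34.1% at E13.5 (33.1% to 35.1%), 16.6% at E15.5 and 16.01% at E18.5 (10.8% to 22.8%).

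Against E13.5, 3290 genes reached 50 CPM at either age. Of these, 250 were at least 2-fold higher at E15.5 (7.6%) and 107 at least 2-fold lower (3.25%), with a median log2 ratio of -0.06 over all of them. These are counts past a fold between 2 libraries, not a test. The file headers name the counting software Cell Ranger as 3.1.0 at E13.5 and 3.0.2 at E15.5, a difference that cannot be told apart from age.

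Matrix genes were the group that was most often higher at E15.5. Without the 3 collagens that chose the cells, 29 of 30 genes on the list reached the minimum, 18 of them were at least 2-fold higher and none 2-fold lower, with a median log2 ratio of 1.40. With the 3, the count was 21 of 32. Over all genes past the minimum, 7.6% were at least 2-fold higher. Outside the gate, Mfap5 was at 606 CPM against 31.2 at E13.5 (log2 ratio 4.26), Fbln5 at 988 against 102 (3.27) and the periosteal matrix gene Postn at 793 against 129 (2.62). Dcn was at 3148 CPM against 622 (2.34) and Eln at 1555 against 339 (2.20). The proteoglycan Vcan, at 206 against 222 CPM (-0.11), was the member of the list nearest to no difference.

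Lung mesenchyme transcription factors went the other way. Of 31, 23 reached the minimum, 10 were at least 2-fold lower at E15.5 and 1 higher, with a median log2 ratio of -0.62. Among all genes past the minimum, 3.25% were lower and 7.6% higher. Tbx5 was at 10.1 CPM against 56.6 (-2.43), Tbx2 at 20.9 against 92.8 (-2.12), Foxf1 at 16.5 against 51.1 (-1.61) and Tcf21 at 39.8 against 101 (-1.33). Gata6, a factor of heart, gut and lung, was the one that was higher, at 217 against 81.05 CPM (1.42).
At E18.5 the same gate again held these factors, Tcf21 at 681 CPM, Tbx2 at 151, Tbx5 at 64.9 and Foxf1 at 69.2. The E15.5 members thus stood below both ages for these 4 factors. In the 55 cells with a Tbx4 or Tbx5 UMI, however, Tcf21 was at 227 CPM (186 to 274) against 140.2 at E13.5 (136 to 144), and Foxf1 at 113 (85.2 to 148) against 86.4 (83.1 to 89.7). Whether mesenchyme from outside the lung entered the E15.5 library was not tested.
The lists were also compared within the Tbx split, leaving out Tbx4 and Tbx5, which chose the cells. In cells with such a UMI, 5 of 22 lung mesenchyme factors past the minimum were at least 2-fold lower at E15.5 and 2 of 25 matrix genes outside the gate at least 2-fold higher, where 2.45% and 3.76% of all genes past the minimum were. In cells without, 7 of 21 factors were lower and 19 of 29 matrix genes outside the gate higher, where 3.35% and 6.82% of all genes were. Over all members, 9 of 22 factors without Tbx4 and Tbx5 were lower.

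**Figure D5:**
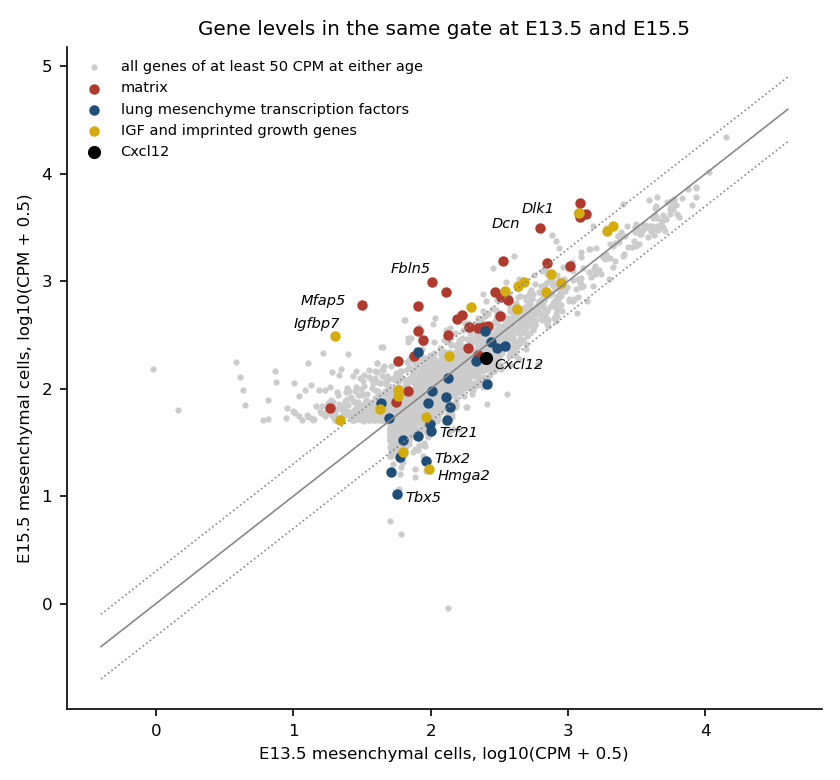
Gene levels in the mesenchymal gate at E13.5 (horizontal) and E15.5 (vertical), each as log10 of CPM plus 0.5, for the 3290 genes at 50 CPM or more at either age. The solid line marks equal levels and the dotted lines a 2-fold difference, with 18 of 29 matrix genes outside the gate past the upper line (21 of 32 plotted, with the 3 collagens that chose the cells) and 10 of 23 lung mesenchyme factors past the lower line.

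Growth genes of the IGF and imprinted list were more often higher, 7 of 20 past the minimum against 2 lower, with a median log2 ratio of 0.62. The shares of all genes were 7.6% higher and 3.25% lower. Igfbp7, a binding protein of matrix and vessels, was at 308 against 19.5 CPM (3.94), Dlk1 at 4286 against 1207 (1.83) and Igf1 at 809.7 against 350.1 (1.21). The 2 that were lower were Hmga2, a chromatin protein of early embryonic growth, at 17.3 against 97.6 CPM (-2.46), and the RNA-binding protein gene Igf2bp1 at 25.6 against 62.2 (-1.27).
By level, none of 8 S phase genes and none of 9 G2 and M phase genes past the minimum passed 2-fold, with medians of -0.21 and -0.30, and Top2a was at 209.8 CPM against 258. Thinned to 2000 UMIs, 20.4% of members held 2 or more UMIs of the G2 and M list (17.9% to 23.2%), against 31.5% at E13.5 (30.6% to 32.4%), intervals that cover counting error in 1 library each and are no test between ages. The part of free RNA in such shares was not tested.

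Of 24 genes of Wnt signalling, 8 were past the minimum, of which 4 were at least 2-fold higher and none lower, with a median log2 ratio of 0.85. Beside this count and that of the BMP and TGF-beta genes stands the share of all genes that were higher, 7.6%. Dkk3 was at 116 against 6.96 CPM (3.96), Sfrp2, a secreted Wnt binding protein, at 1736 against 402 (2.11), the receptor Fzd1 at 62.1 against 24.1 (1.35) and Dkk2 at 204 against 84.7 (1.27). The ligand gene Wnt5a was at 66.8 against 70.5 CPM. Axin2, a common target of Wnt signalling, was at 6.39 and 7.86 CPM.
Of the BMP and TGF-beta genes, 3 of 11 were at least 2-fold higher and none lower, the pseudoreceptor Bambi at 162 against 45.6 CPM, the ligand Tgfb3 at 56.4 against 18.6 and the latency protein gene Ltbp1 at 127 against 60.5. Ltbp1 shares a stretch near its 3′ end with other genes. None of 5 hedgehog genes passed 2-fold, with Ptch1 at 35.8 against 67.03 CPM.

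FGF genes were low in these cells, and only 2 of 15 reached the minimum. Fgf18 was at 53.3 against 12.9 CPM (2.01), while the receptor Fgfr1 was at 100.4 against 66.8. Fgf10, the mesenchymal signal for lung budding, was at 27.3 against 15.5 CPM, under the minimum at both ages.
Of 9 vascular growth and guidance ligands, 2 were at least 2-fold higher, where 7.6% of all genes past the minimum were. With lists as short as the FGF, vascular and PDGF lists, such counts describe single genes and not a pathway. Angpt2, which modulates Tie2, was at 78.1 against 18.2 CPM (2.07) and Sema3c at 59.3 against 9.74 (2.55). Vegfa, the main endothelial growth factor, was at 45.7 against 35.4 CPM, under the minimum. Angpt1 was also under the minimum, at 7.62 against 27.4 CPM.
Of the 2 PDGF genes past the minimum, the receptor Pdgfrb was at least 2-fold lower, at 57.7 against 142 CPM (-1.29), and Pdgfra was at 107 against 117. Of all genes, 3.25% were lower. None of 4 retinoic acid genes past the minimum passed 2-fold, with a median log2 ratio of 0.59. Crabp1 was at 391 against 575 CPM and Crabp2 at 91.3 against 65.4.

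Genes that respond to tissue dissociation also differed, with 3 of 9 at least 2-fold higher at E15.5 and a median log2 ratio of 0.70. The share of all genes that were higher was 7.6%, which also stands beside the lipid genes below. Fos was at 1023 against 472 CPM, Atf3 at 56.03 against 12.1 and Zfp36 at 92.5 against 23.6. The endothelial marker list without gate genes summed to 248 CPM at E15.5 against 90.8 at E13.5, in a library that was 75.4% endothelial, and the erythroid list to 11.8 against 240.4 CPM. The part of dissociation and of free RNA in the differences between ages was not tested. Of lipid genes, Apoe was the 1 of 4 that was 2-fold higher, at 396 against 104 CPM.

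Single genes with the 10 largest ratios in each direction follow. On the higher side, after Gm10320, at 154 against 0.445 CPM, whose 3′ end is shared with Sec61b and whose count is therefore uncertain, came Tnnt2 (5.53 on the log2 scale), Pi16 (5.47), the matrix protein gene Dpt (4.97), the fatty acid binding gene Fabp4 (4.50) and Clec3b (4.32). Mfap5, Gas6 (3.98), Dkk3 and Igfbp7 completed the 10. In cells with a Tbx4 or Tbx5 UMI, the ratios of Pi16 and Fabp4 turned to -1.21 and -2.18. The others of the 10 kept their direction in such cells, though not necessarily their size. With a pseudocount of 5 CPM the ratio of Pi16 was 3.53, and with the smooth muscle gate included that of Fabp4 was 1.962. Dpt, Pi16 and Clec3b remained present at E18.5, at 425, 179 and 691 CPM, whereas Tnnt2 was at 0.729. Among the E15.5 members, Tnnt2 came mostly from the Scx-Sost cluster.
Fabp4 is also an endothelial gene, at 381 CPM in the endothelial cells of the library. It was at 154 CPM in the Egfl6-Wfdc18 cluster and 12.5 in the Scx-Sost cluster, where Cldn5 was at 6.51 and 20.6, and the part of free endothelial RNA in its ratio was not tested. On the lower side stood the chemokine Cxcl14 (5.44 against 50.2 CPM), Hmga2, 6030408B16Rik (16.6 against 92.9), Tbx5, Iqgap2 (-2.35), Col13a1 (-2.32), Tenm4 (-2.19), Tbx2 and the amino acid transporter Slc38a5 (-2.11). Cxcl14, 6030408B16Rik, Col13a1, Tbx5 and Tbx2 were also among the 10 leading genes of the Car2-Tbx4 cluster at E15.5, and in cells with a Tbx4 or Tbx5 UMI the ratios of 6030408B16Rik and Tbx2 turned to 0.14 and 0.35, and those of Cxcl14, Iqgap2, Col13a1 and Slc38a5 were -0.55, -0.73, -0.07 and -0.06. Hmga2 and Tenm4 kept their direction in these cells.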

How the data were processed

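The authors deposited raw UMI counts, as whole numbers and not normalized, for each gene in each called cell, from 10x 3′ v3 tags aligned to mm10 with Cell Ranger, version 3.1 in the submitters' processing notes, 3.1.0 in the E13.5 file header and 3.0.2 in the E15.5, E18.5 and P8 headers. The 4 libraries held 63746333 to 117522172 UMIs. The cell limits were those of the study's methods. The gate, the lists and the naming rules were chosen with earlier results of these data known. Levels are summed UMIs scaled to 1000000 (CPM) with exact Poisson intervals, shares have exact Clopper-Pearson intervals, and ratios add 0.5 CPM. Shares at 2000 UMIs are the expected value over all random thinnings, and 20 draws gave 14.5% to 17.7% for Cxcl12 in the members. Clusters came from Pearson residuals (theta 100) of 3000 variable genes, with the mitochondrial share regressed out, 25 principal components and 20 neighbours. The Louvain method was run at resolution 0.8 with seed 1 (numpy 2.4.6, scikit-learn 1.9.0, igraph 0.11.9, Python 3.11.15). A cluster was named from a marker list only if at least 3 of its markers were at 10 CPM or more, its mean log2 ratio was at least 0.5, no other list had more markers among the 10 leading genes, and it led at resolutions 0.2, 0.8 and 1.2, the first and last of which were added after the clusters had been seen. Genes named were those of the lists, the 15 most abundant, and the 10 (between ages) or 5 (between populations or clusters) largest ratios among genes of at least 50 CPM, without haemoglobin, mitochondrial, Rpl and Rps, Y-linked, Xist, Tsix and gate genes. A few of these genes are not reported here. Single markers in the cluster accounts were chosen after their values had been seen. Scrublet (scanpy 1.11.5) marked 416 of 11649 cells at E15.5, and its calls were kept except in an alternative. At E13.5 it marked 1 of 12726 and had not worked. Of 320 genes named or on the lists, 43 share a 60-base stretch of their last 300 bases with another gene in GENCODE M21.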

Additional observations from a re-analysis of the deposited data

How the results depend on the processing

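No paired analysis was possible because each age gave 1 library. Over the planned and added alternatives, the 8 main results gave 57 values within the counting interval (or within 1.5 times, for counts) and 13 that moved. Only the log2 ratios among the main results could change direction, and none did. With the mean of per-cell CPM, Cxcl12 stood at 168 CPM in the members, its log2 ratio to endothelial cells at -2.34 and that of E15.5 to E13.5 at -0.72. With cells thinned to 2000 UMIs the latter was -0.81. A minimum of 20 CPM instead of 50 gave 424 genes at least 2-fold higher and 217 lower, among 6410 genes in place of 3290. Thinning to 4000 UMIs gave a share of 23.5% with a Cxcl12 UMI. Resolution 0.2 gave 5 clusters, and the other settings 7 to 10. There were 4 alternatives chosen after seeing the data. With the smooth muscle gate included at both ages, 128 genes were at least 2-fold lower in place of 107, the Cxcl12 ratio stayed at -0.40 and that of Fabp4 went from 4.50 to 1.962. Without the Car2-Tbx4 cluster, Cxcl12 stood at 209 CPM, with a log2 ratio to endothelial cells of -1.83. In cells with a Tbx4 or Tbx5 UMI in both libraries, the Cxcl12 ratio of E15.5 to E13.5 was -2.17 and 124 genes were at least 2-fold higher, and in cells without such a UMI the Cxcl12 ratio was -0.69. In the first of these, 5 named genes turned direction, Pi16 (-1.21), Fabp4 (-2.18), 6030408B16Rik (0.14), Tbx5 (0.23, a gene that chose the cells) and Tbx2 (0.35), from 55 cells at E15.5, and the cause was not tested. Of 220 ratios of the 20 named genes under 11 alternatives, 152 stayed within their interval, 63 moved without turning direction and 5 turned. Clusters of 17 to 227 cells, from members with a median of 7327 UMIs, hold few UMIs of a gene of low level.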
